A study of Mus musculus with 8 samples.

Results

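Cholesterol synthesis is described here through 9 genes, the enzymes Hmgcs1, Idi1, Fdps, Fdft1, Sqle, Lss, Cyp51 and Dhcr7 and the regulator Insig1. They were listed by name, and every probe set that the array's annotation gave to one of them was taken. There were 20 such probe sets for 8 of the 9 genes, out of 12393 genes with a probe set of their own. No probe set was annotated to Insig1, which is not analysed here. A probe set was tested if its intensity reached the median of its array on at least 4 of the 8 arrays. This held for 13 of the 20 probe sets and 7 of the 9 genes, since both probe sets of Fdps were too dim.

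Cholesterol is built in the endoplasmic reticulum from acetyl-CoA. Hmgcs1 acts early, before mevalonate, Idi1 and Fdps shape the isoprenoid units, Fdft1 joins them into squalene, and Sqle, Lss, Cyp51 and Dhcr7 turn squalene into the sterol rings and then into cholesterol. Insig1 is no enzyme but a membrane protein that holds back the factors which switch these genes on when sterols are plentiful. Growing cells need cholesterol for new membrane, and the visceral endoderm of the yolk sac also takes up maternal lipid and packs it into lipoproteins for the embryo.

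Erythroid captures, of the primitive red cell precursors of the yolk sac, were set against epithelial captures, which the submitters used as the control that is not erythroid. Both came by laser microdissection from frozen sections, 8 micron thick, of yolk sacs at embryonic day 9.5 from untreated mice of the FVB/N strain, which the labels give no mutation. There were 4 captures of each kind in 4 pairs, each pair from shared slides, with 2 to 4 yolk sacs of 2 litters pooled in a replicate. It took 2 to 3 laser pulses to collect an erythroid cell and 1 to collect an epithelial cell, and the epithelial cells were taken last from each slide. Inputs of 10 to 39 ng of RNA went through 2 cycles of amplification before hybridisation to an Affymetrix mouse expression array.

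The deposited values are intensities (MAS5 signal, linear scale, mean of 500 on each array after trimming). Array medians ran from 81.5 to 127. The background level, read from probe sets of odorant receptors and other genes with no known use in these cells, ran from 55.1 to 133. The 3' over 5' ratio of the Actb control probe sets, a sign of shortened RNA, ran from 7.75 to 13.5 on the arrays of pairs 3 and 4, against 46.5 to 131 on those of pairs 1 and 2. Of 13 erythroid markers, 10 were higher in the erythroid captures, 0 were lower and 3 were not called (median log2 difference 2.05), and 12 lay above 0. Of 14 markers of the visceral endoderm, 12 were lower, 0 were higher and 2 were not called (median -1.55). Most erythroid markers were thus higher in the erythroid captures, and most endoderm markers in the epithelial ones. The labels do not say which epithelium was captured. The summed intensity of the erythroid list was 86448 to 162550 in erythroid and 51410.5 to 96517 in epithelial captures, that of the endoderm list 60869.5 to 95930 and 101683 to 166550.

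Markers of other cell types gave signal in the captures too. Of 9 tested markers of mesenchyme, smooth muscle and mesothelium, 6 were higher in the erythroid captures, with a summed intensity of 37097 to 55148 against 8096 to 32984 in the epithelial captures. For the megakaryocyte list these counts were 2 of 6 (5166 to 18467.5 against 1681 to 2890), for the endothelium 1 of 5 (1055 to 2092 against 622 to 1313), and for macrophages and leukocytes 1 of 4 (1150 to 1951 against 659 to 1122). In each of these 4 lists 0 tested markers were called lower, and of all genes tested 6.02% were higher. The lists held 10, 7, 8 and 7 markers in this order, and those too dim to be tested were left out. The tested markers with a log2 difference above 0 numbered 9, 4, 4 and 4. Whether these signals came from other cells or from the captured cells themselves was not tested. Nor was the part of other cells in the values below. In captured tissue, fewer cells of a type and less RNA per cell cannot be told apart.

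By the RefSeq annotation (GRCm38.p6), Idi1 and Hmgcs1 share chromosome 13 and the other enzymes lie apart. Positions of the probe sets within the genes were not used here. Fdps lies at chr3:89093588-89101967, Fdft1 at chr14:63145150-63181687 and Sqle at chr15:59315092-59331193. Lss lies at chr10:76531565-76557139, Cyp51 at chr5:4080674-4104697 and Dhcr7 at chr7:143823167-143848410.

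Among the 7 tested genes, Idi1 and Sqle were higher in the erythroid captures and 0 were lower. Over all 7192 genes tested, 6.02% were higher and 8.9% were lower by the same rule (limma, Benjamini-Hochberg adjusted p under 0.05). The median log2 difference, erythroid minus epithelial, was -0.21 over the 7 genes and -0.01 over all genes, and 3 of the 7 lay above 0. The sign of the members' median depended on the probe sets tested. It was 0.21 with no filter on intensity and 0.23 with the filter on all arrays, so no direction is given for the members as a group. A gene without a call is not shown to be equal in both cell types.

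The promoters are shown for the gene with the largest difference, Idi1, and for Hmgcs1, the member whose window alone held the sterol element searched for. They are the 250 bases before the annotated start in RefSeq (GRCm38.p6), 5′ to 3′ along the gene. Idi1 lies on the plus strand of chromosome 13 (8885606 to 8892396) and its window is chr13:8885356-8885605. Hmgcs1 lies on the plus strand of the same chromosome (119690351 to 119708260) and its window is chr13:119690101-119690350. Capitals mark CCAAT boxes, the site of the factor NF-Y, on either strand (ATTGG on the strand shown), and in Hmgcs1 also the sterol element TCACCCCAC.
Idi1: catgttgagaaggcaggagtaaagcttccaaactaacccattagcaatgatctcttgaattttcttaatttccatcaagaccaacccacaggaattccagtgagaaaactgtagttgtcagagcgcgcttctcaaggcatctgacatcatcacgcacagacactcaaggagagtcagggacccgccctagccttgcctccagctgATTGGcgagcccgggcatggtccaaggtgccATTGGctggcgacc
Hmgcs1: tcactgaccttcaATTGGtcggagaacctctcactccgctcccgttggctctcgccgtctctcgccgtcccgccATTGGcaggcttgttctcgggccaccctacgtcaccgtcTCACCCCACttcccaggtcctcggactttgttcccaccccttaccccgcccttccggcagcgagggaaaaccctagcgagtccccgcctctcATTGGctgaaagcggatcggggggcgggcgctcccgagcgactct

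The table of RefSeq promoters used here held 6 of the 9 genes, in 8 windows, 3 of them for Dhcr7. On both strands, the sterol element TCACNCCAC stood in 1 of these 8 windows, that of Hmgcs1 (129 to 137 bases before the start), and in 1.05% of all 32851 promoter windows. A CCAAT box stood in 6 of the 8 and in 33.8% of all windows, and the GC box GGGCGG, a site of Sp1, in 7 of the 8 and in 32.7%. The Idi1 window held 2 CCAAT boxes, 10 to 14 and 41 to 45 bases before the start, and 1 GC box. The Hmgcs1 window held 3 CCAAT boxes and 2 GC boxes. No matches of different motifs overlapped in the 8 windows, though 2 of the 3 windows of Dhcr7 overlap each other. A match describes letters only.

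At the start of the pathway, Hmgcs1, which makes the HMG-CoA that is then reduced to mevalonate, showed no called difference. Its brightest probe set (1433443_a_at) had intensities of 9154, 4932, 2471 and 2791 in the erythroid captures of pairs 1 to 4, against 8705, 7668, 2803 and 4113 in the epithelial captures. On this probe set the captures of pairs 1 and 2 lay above those of pairs 3 and 4 in both cell types, while the cell types overlapped. In the epithelial captures 1433445_x_at ran the other way, with 1097, 1233, 1921 and 2318 in pairs 1 to 4. So did 1433444_at, with 886, 1008, 1473 and 1701, so no order of the pairs is given for Hmgcs1. For 1433443_a_at the log2 difference was -0.31 ± 0.17 (SE, n = 4 pairs; limma adjusted p = 0.25). The erythroid capture was higher in 1 of 4 pairs. Here and below, each SE is limma's, from a variance drawn towards that of all probe sets, and does not measure the spread of the 4 pairs alone. The other 3 probe sets gave 0.01, 0.09 and -0.47 (adjusted p = 0.987, 0.838 and 0.627), so no direction can be given for Hmgcs1. The last of these, 1433446_at, lay above background on 3 of 4 erythroid and 1 of 4 epithelial arrays.

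Idi1, which turns isopentenyl diphosphate into its reactive isomer, was the member with the largest rise. The intensities of 1423804_a_at were 4398, 3644, 2710 and 2487 in the erythroid captures of pairs 1 to 4, against 3176, 1856, 667 and 713 in the epithelial captures. The erythroid capture was higher in each pair, but the epithelial capture of pair 1 lay above the erythroid captures of pairs 3 and 4, so the groups overlapped. On average Idi1 was 2.54-fold higher, a log2 difference of 1.35 ± 0.26 (SE, n = 4 pairs; limma adjusted p = 0.00725).

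The second probe set of Idi1, 1451122_at, gave a difference of similar size. It had 2078, 1592, 1450 and 1693 in the erythroid captures, against 1085, 1016, 489 and 437 in the epithelial captures. Here the lowest erythroid value lay above the highest epithelial one. The log2 difference was 1.28 ± 0.24 (SE, n = 4 pairs; limma adjusted p = 0.00717). Without the pair term Idi1 lost its call (adjusted p = 0.144), as it did with a variance model without a trend (0.064).

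In Idi1 the spread between pairs came mostly from the epithelial side. The SD of the normalised log2 level of 1423804_a_at was 0.37 over the erythroid and 1.12 over the epithelial captures (n = 4 each). Within pairs the log2 differences were 0.52, 0.90, 2.07 and 1.90, with an SD of 0.76. The mean difference was 1.99 over pairs 3 and 4 but 0.71 over pairs 1 and 2. This gap of 1.28 ± 0.31 (SE) passed its own test (limma interaction, adjusted p = 0.0412), a call made for 2% of all genes. The gap was 1.02 ± 0.36 for 1451122_at (adjusted p = 0.184). The erythroid markers also differed more in pairs 3 and 4, with a median of 3.02 against 1.22 over pairs 1 and 2, and the mesenchymal markers likewise (2.39 against 0.34). The same held for the markers of the visceral endoderm (-1.96 against -1.08), megakaryocytes (1.67 against 0.59) and endothelium (0.81 against -0.02). For macrophages and leukocytes the medians were 0.60 and 0.47. The part of RNA quality and of other cells in this gap was not tested.

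Fdps, which joins isoprenoid units into farnesyl diphosphate, was measured only dimly. Its probe set 1423418_at ran from 6.68 to 141 over the 8 arrays and lay above background on 1 of 4 erythroid and 0 of 4 epithelial arrays. The other, 1438150_at, ran from 2.24 to 81.8 and lay above background on 0 arrays. No difference is given for Fdps.

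Fdft1, squalene synthase, gave lower values in the erythroid captures without passing the test. The probe set 1438322_x_at had 1525, 1324, 1627 and 1790 in the erythroid captures of pairs 1 to 4, against 2510, 1822, 2293 and 2038 in the epithelial captures. The highest erythroid value lay below the lowest epithelial one, and the erythroid capture was lower in 4 of 4 pairs. The difference was nonetheless small, -0.42 ± 0.17 on the log2 scale (SE, n = 4 pairs; limma adjusted p = 0.136). The second tested probe set, 1448130_at, gave -0.51 ± 0.32 (adjusted p = 0.318), with the erythroid capture higher in pair 1. The other probe sets of Fdft1, 1438918_at and 1438919_x_at, lay above background on 0 arrays.

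Sqle, squalene epoxidase, adds the oxygen that lets squalene close into a ring and is a step at which the pathway is known to be controlled. Its single probe set, 1415993_at, had 479, 516, 589 and 626 in the erythroid captures of pairs 1 to 4, against 340, 270, 134 and 203 in the epithelial captures. The groups did not overlap, and the erythroid values lay close together, with a normalised log2 SD of 0.08 against 0.56 in the epithelial captures (n = 4 each). Sqle was 2.27-fold higher, a log2 difference of 1.18 ± 0.27 (SE, n = 4 pairs; limma adjusted p = 0.0175).

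The difference of Sqle was above 0 in each pair, at 0.37, 1.09, 1.91 and 1.35. Its gap between the sets of pairs, 0.90 ± 0.48, did not pass (limma interaction, adjusted p = 0.435). The call of Sqle ended with pair 3 left out (0.94, adjusted p = 0.0729), with pair 4 left out (1.12, 0.0958) and with both left out (0.73, 0.184). It ended too in the fit with no pair term (0.0529) and in that with no variance trend (0.0668).

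Lss, which closes the ring to lanosterol, showed no called difference. The probe set 1420013_s_at had 316, 211, 383 and 328 in the erythroid captures of pairs 1 to 4, against 312, 324, 353 and 374 in the epithelial captures. The groups overlapped and the erythroid capture was higher in 1 of 4 pairs after normalisation, with a log2 difference of -0.21 ± 0.23 (SE, n = 4 pairs; limma adjusted p = 0.574). Of the untested probe sets, 1426913_at lay above background on 1 erythroid and 0 epithelial arrays, and 1420014_at on 0 arrays.

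Cyp51, which removes the methyl group at carbon 14 of lanosterol, gave higher values in the erythroid captures but was not called. Its brightest probe set, 1450646_at, had 610, 766, 474 and 890 in the erythroid captures of pairs 1 to 4, against 559, 640, 225 and 309 in the epithelial captures. The erythroid capture was higher in 4 of 4 pairs and the groups overlapped. The log2 difference was 0.67 ± 0.26 (SE, n = 4 pairs; limma adjusted p = 0.11), and within pairs it was 0.02, 0.34, 0.92 and 1.40. It was 1.16 over pairs 3 and 4 alone (adjusted p = 0.00384) but 0.18 over pairs 1 and 2 alone (0.817). This gap of 0.98 ± 0.42 did not pass (limma interaction, adjusted p = 0.314). The p-values of the fits on so few pairs rest mostly on the variance pooled over probe sets.

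The second tested probe set of Cyp51 gave a smaller difference. For 1422533_at the values were 227, 138, 224 and 285 in erythroid against 242, 179, 115 and 121 in epithelial captures. It was higher in 2 of 4 pairs, with a log2 difference of 0.23 ± 0.31 (SE; limma adjusted p = 0.656). The third, 1422534_at, was above background on 0 arrays.

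Dhcr7, which makes cholesterol from its direct precursor at the end of the pathway, gave the lowest log2 difference of the 7 genes, again without a call. The probe set 1448619_at had 146, 178, 58.9 and 160 in the erythroid captures of pairs 1 to 4, against 229, 208, 393 and 225 in the epithelial captures. The groups did not overlap, though pair 2 hardly differed after normalisation. The log2 difference was -1.09 ± 0.42 (SE, n = 4 pairs; limma adjusted p = 0.111). It was made up of -0.89, -0.03, -2.78 and -0.65, with an SD of 1.19.

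Pair 3 weighed most in the value of Dhcr7, where the erythroid capture lay under its array's background level. With pair 3 left out the log2 difference was -0.52 (limma adjusted p = 0.378). It was -1.72 over pairs 3 and 4 alone (adjusted p = 0.00228) but -0.46 over pairs 1 and 2 alone (0.668). With so few pairs these p-values rest mostly on the variance pooled over probe sets, and pair 3 is among them. The gap between the sets, -1.26 ± 0.73, did not pass (limma interaction, adjusted p = 0.489).

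**Figure D1:**
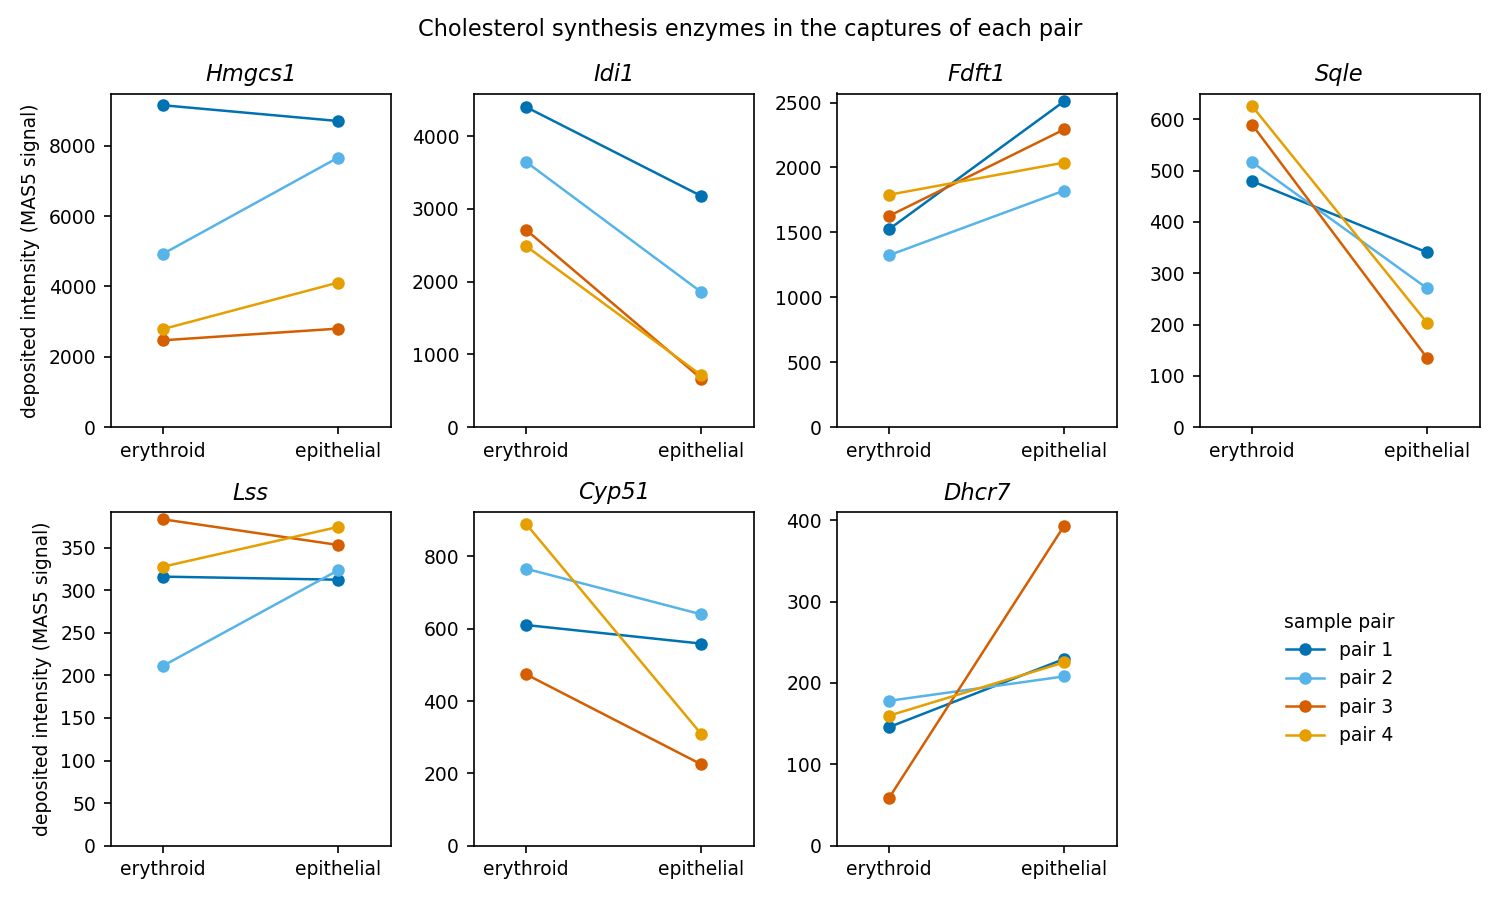
Deposited intensity (vertical axis, linear, from 0) of the 7 tested genes, each read from its brightest tested probe set, in the erythroid (left) and epithelial (right) capture of each pair, with a line for each of the 4 pairs. All lines of Idi1, Sqle and Cyp51 fall towards the epithelial side and all lines of Fdft1 and Dhcr7 climb towards it, and in Idi1 the epithelial captures of pairs 3 and 4 are at 667 and 713.

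In the order of the pathway, Fdft1, with a value below 0, stood between the called genes Idi1 and Sqle. The sign of Hmgcs1 was not settled, since the difference was 0.091 without probe sets of the x, s and a kinds, whose probes can match several transcripts. No claim is made that the members differ from each other, since 4 pairs cannot show it with an exact test.

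**Figure D2:**
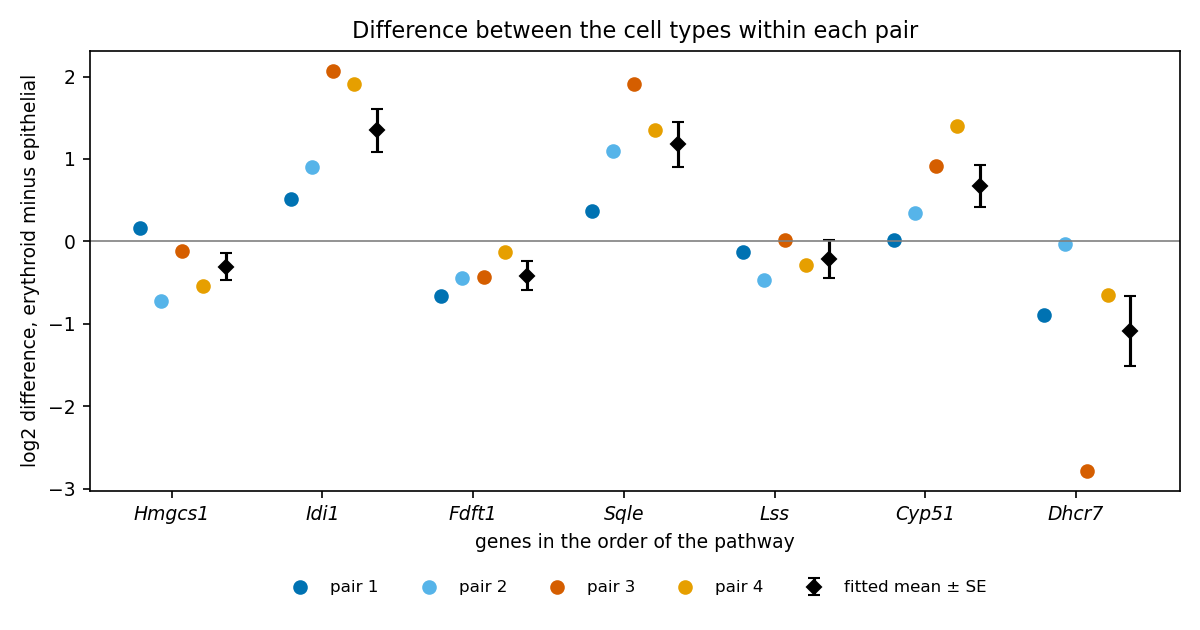
Log2 difference, erythroid minus epithelial, of the 7 tested genes in the order of the pathway, with a coloured point for each of the 4 pairs and a black diamond for the fitted mean with its SE. The fitted means of Idi1 (1.35), Sqle (1.18) and Cyp51 (0.67, not called) stand above 0. Those of Dhcr7 (-1.09), Fdft1 (-0.42), Hmgcs1 (-0.31) and Lss (-0.21), which were not called, stand below it. In Idi1 and Sqle pairs 3 and 4 lie above pairs 1 and 2.

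**Figure D3:**
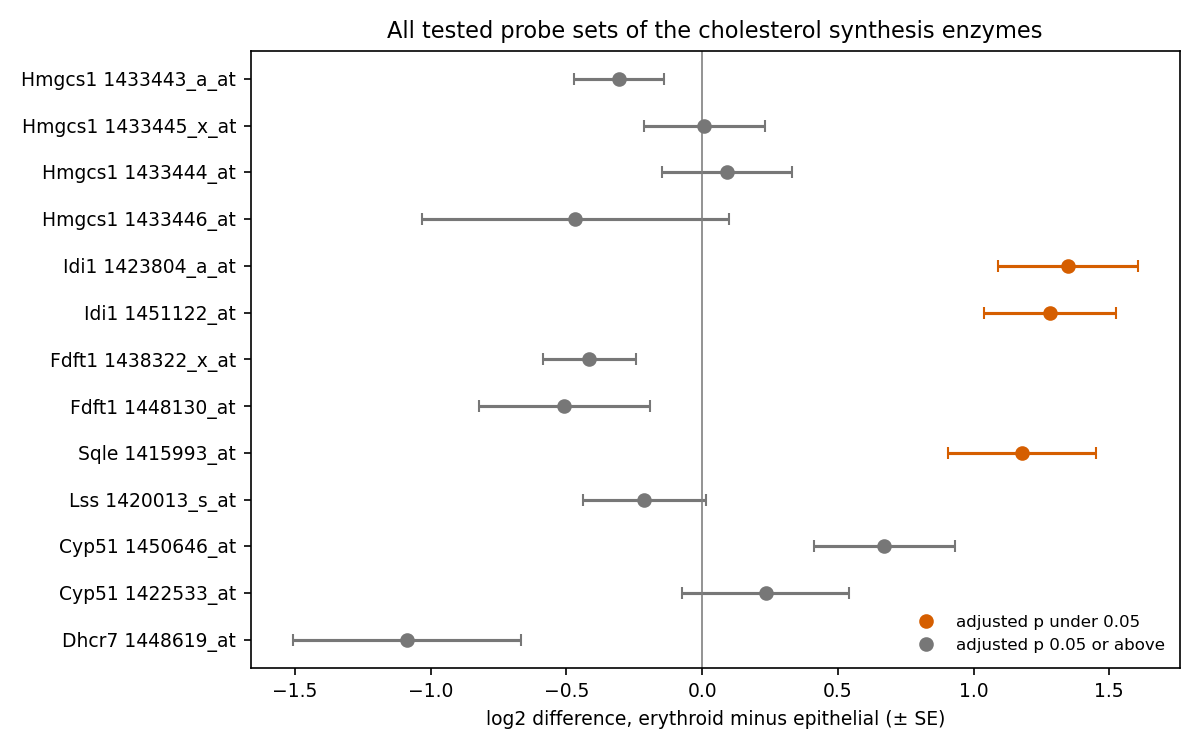
Log2 difference, erythroid minus epithelial, with its SE, for each of the 13 tested probe sets of the pathway members, brightest first within a gene, in orange where the adjusted p was under 0.05. The 2 probe sets of Idi1 stand at 1.35 and 1.28 and that of Sqle at 1.18, while the 4 of Hmgcs1 lie on both sides of 0.

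Of 14 further enzymes listed from acetoacetyl-CoA to cholesterol, 10 had a probe set and 9 were tested, of which 1 was higher, 0 were lower and 8 were not called (median log2 difference -0.16). Of all genes tested, 6.02% were higher, so 1 of 9 is no result about these enzymes as a group. The gene called was Lbr, a sterol reductase of the nuclear membrane that also binds lamin B. It had 3758, 3553, 3244 and 3021 in the erythroid captures of pairs 1 to 4, against 2684, 2806, 1474 and 1522 in the epithelial captures.

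The values of Lbr did not overlap, and the log2 difference was 0.78 ± 0.19 (SE, n = 4 pairs; limma adjusted p = 0.0233). The call ended with the arrays centred on their medians (0.55, adjusted p = 0.124) and with pair 3 (0.64, 0.104), pair 4 (0.66, 0.124) or both left out (0.39, 0.261). With no pair term the adjusted p was 0.143, and with no variance trend it was 0.105. The smallest difference was that of Msmo1, a methyl sterol oxidase, at 0.03 ± 0.32 (adjusted p = 0.966), which had the other sign with median centring (-0.05).

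Among the regulators, 6 of 10 listed genes were tested, with 0 higher and 1 lower (median -0.17). Over all genes tested 8.9% were lower, so 1 of 6 is no result about the regulators as a group. Mylip, a ubiquitin ligase that sends the LDL receptor to be broken down, had a log2 difference of -0.95 ± 0.22 (SE, n = 4 pairs; limma adjusted p = 0.0185). Its intensities were 884, 914, 587 and 930 in the erythroid captures, against 1183, 1547, 1730 and 1928 in the epithelial captures, with no overlap. The call of Mylip ended with pair 3 (-0.74, adjusted p = 0.0803), pair 4 (-0.91, 0.0961) or both left out (-0.58, 0.168), with no pair term (0.0599) and with no variance trend (0.0758).

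The factors that drive the pathway showed no call. Srebf1 was at -0.24 ± 0.22 (limma adjusted p = 0.491) and Srebf2, the one tied most closely to cholesterol genes, at 0.16 ± 0.43 (0.839), above background on 3 of 4 erythroid and 2 of 4 epithelial arrays. Insig2, the relative of Insig1, was at -0.27 ± 0.22 (0.456), and Scap, which carries the factors to the Golgi, had the smallest difference at -0.10 ± 0.24 (0.828).

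Genes that take up, move and store cholesterol lay mostly on the epithelial side. Of 15 listed, 9 were tested, 5 were lower in the erythroid captures and 0 higher, beside 8.9% lower and 6.02% higher over all genes tested. The median of the 9 was -0.59. The largest fall was that of Npc1, which exports cholesterol from lysosomes, by 1.83 (SE 0.36; limma adjusted p = 0.00789), with 134, 222, 22.7 and 166 in erythroid against 312, 597, 240 and 432 in epithelial captures. The erythroid capture of pair 3 was under its background level.

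The uptake receptor Lrp2, which stands also in the endoderm marker list, fell by 1.44 (SE 0.26; limma adjusted p = 0.00547). Stard4, a carrier of sterol between membranes, fell by 1.09 (SE 0.21; adjusted p = 0.00717), Lipa, the lysosomal lipase of cholesteryl esters, by 0.77 (SE 0.22; adjusted p = 0.0418) and Npc2, the partner of Npc1, by 0.59 (SE 0.13; adjusted p = 0.0151). The value of Lipa is uncertain, because it was 0.20 (adjusted p = 0.689) without probe sets of the x, s and a kinds. With the probe sets of a gene averaged it was -0.28 (0.439), and it also lost its call when pair 2, 3 or 4 was left out (0.0785, 0.138 and 0.173). Stard4 lost its call without probe sets of the x, s and a kinds (-0.41, adjusted p = 0.321) and with pair 4 left out (-1.03, 0.0564). Npc2 lost its call with pair 3 (-0.49, adjusted p = 0.0824), pair 4 (-0.62, 0.055) or both left out (-0.47, 0.0618). The smallest difference was that of the exporter Abcg1, at 0.14 ± 0.66 (adjusted p = 0.912).

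On the side branches, 5 of 10 isoprenoid genes were tested and 1 was lower, with a median of 0.08. With 8.9% lower over all genes tested, 1 of 5 is no result about this list as a group. Dhdds, which makes the dolichol precursor, fell by 0.92 (SE 0.23; limma adjusted p = 0.0242), a call that ended when pair 1, 3 or 4 was left out (adjusted p = 0.0843, 0.0644 and 0.097), with its probe sets averaged (-0.72, 0.0941), with no filter (0.0538), and over pairs 3 and 4 (0.0646) or pairs 1 and 2 alone (0.0596). Ggps1, which draws on the product of Fdps, was at 0.62 ± 0.25 (adjusted p = 0.123), and Fnta, a subunit of farnesyltransferase, had the smallest difference at 0.08 ± 0.18, with the other sign under median centring (-0.15).

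Fatty acid synthesis, which answers to related factors, gave 1 gene higher and 1 lower of 10 tested (13 listed, median 0.20). These counts lie near the shares over all genes tested, 6.02% and 8.9%, and are no result about the list as a group. Fads1, a desaturase of long fatty acids, was higher, with 448, 396, 1362 and 698 in erythroid against 240, 271, 270 and 225 in epithelial captures, and no overlap. Its log2 difference was 1.29 ± 0.29 (SE; limma adjusted p = 0.0146), and the call was lost with pair 3 (0.96, adjusted p = 0.0596), pair 4 (1.25, 0.078) or both left out (0.73, 0.211). Elovl1, which lengthens very long fatty acids, fell by 1.07 (SE 0.18; adjusted p = 0.00436), while Fasn, fatty acid synthase, had the smallest difference at -0.07 ± 0.29. With no pair term, the calls of Npc1 (adjusted p = 0.112), Npc2 (0.056), Lipa (0.133), Dhdds (0.0555), Fads1 (0.0665) and Elovl1 (0.0708) also ended. With no variance trend those of Npc2 (0.112), Lipa (0.0821), Dhdds (0.0548), Fads1 (0.0673) and Elovl1 (0.0508) ended. Lrp2 and Stard4 were called in both of these fits.

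**Figure D4:**
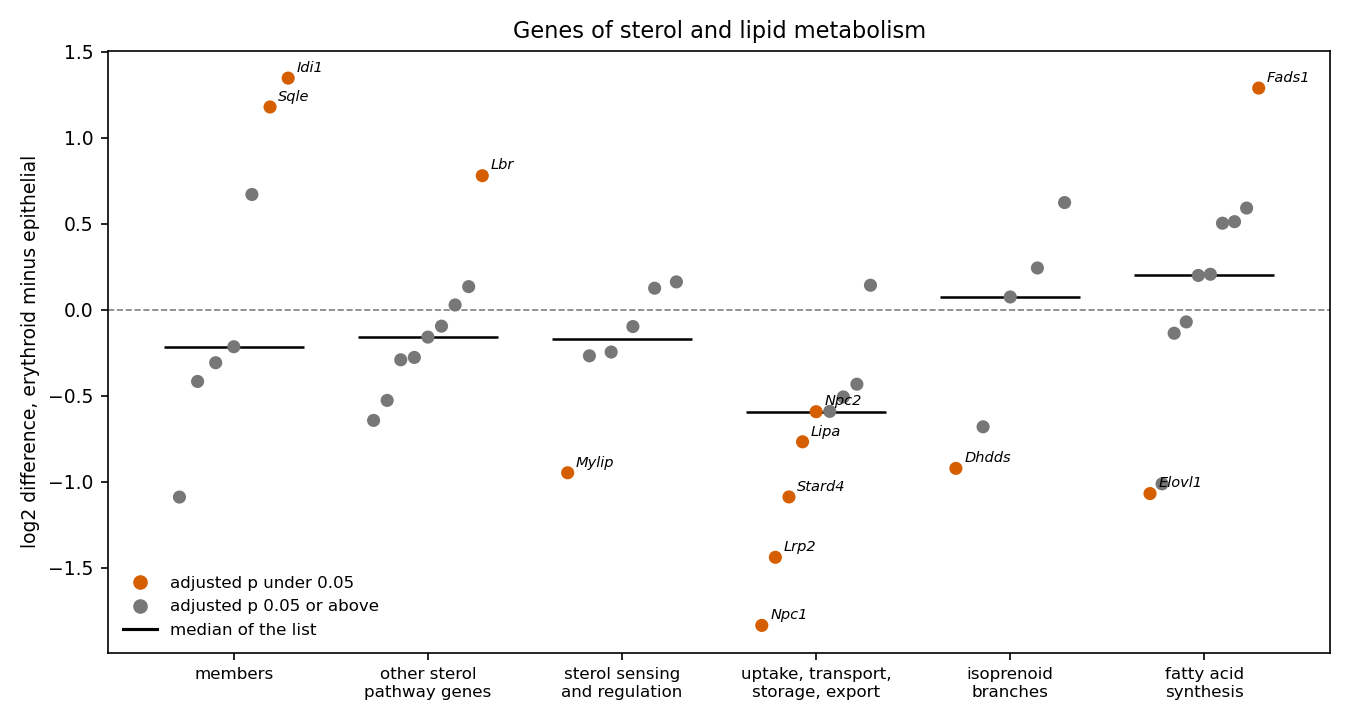
Log2 difference, erythroid minus epithelial, of the 7 tested members and of the tested genes of 5 related lists, 1 point per gene from its brightest tested probe set, in orange and named where the adjusted p was under 0.05, with the median of each list as a black line. The median of the genes of uptake, transport, storage and export is at -0.59 and those of the other lists lie between -0.21 and 0.20.

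The median log2 difference of the 7 genes was 0.02, -0.03, 0.02 and -0.13 in pairs 1 to 4. The 5 other genes nearest to this profile were BC003965, Rpl38, Mtmr10, Mrps36 and Rfx5, at root mean square distances of 0.042 to 0.057 on the log2 scale over the 4 pairs. The profile lies near 0, while members such as Idi1 and Dhcr7 lie far from it. Genes near it are therefore those with little difference between the captures, not genes that follow the members.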

How the data were processed

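The authors deposited 1 intensity (MAS5 signal) per probe set and array for 4 erythroid and 4 epithelial captures. GCOS, MAS5 and affy are the tools in the submitters' processing notes (no versions used here). With the top and bottom 2% dropped, each array averaged 500. Of 22690 probe sets, 64 controls were left out. Genes were named from GEO's platform annotation where it gave 1 gene, with symbols updated to RefSeq.

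The offset 8.14, the 10th percentile of all values, was added before log2. The arrays' medians then spanned 0.59, over the limit of 0.5, so the arrays were quantile normalised. The 11449 probe sets that passed the filter were fitted with limma 3.58.1 in R 4.3.3 (pair and cell type, variance trend, 3 residual degrees of freedom), with two-sided p-values adjusted by Benjamini-Hochberg over all of them and a threshold of 0.05. The interaction compared pairs 3 and 4 with pairs 1 and 2 (2 residual degrees of freedom). Each SE and p-value used limma's variance, which is drawn towards a trend over all probe sets fitted. Such an SE can lie below or above that of the 4 pair differences alone. The brightest tested probe set, by mean level, stood for its gene. Background was the 95th percentile of 117 probe sets of sensory receptors, beta-defensins and keratin-associated proteins.

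The pairs come from the protocols. Deviations of a pair's 2 captures from their group means correlated at 0.44, 0.34, 0.32 and 0.54. The number of arrays limits the precision. Members and lists were chosen with earlier results of these data known. The text names all members, from each related list up to 4 called genes with the largest differences and the gene with the smallest, and the 5 genes nearest to the members' median. Npc2, Srebf1, Srebf2, Insig2 and Ggps1 were added after their values were seen. Listed genes without a probe set here were not analysed here. Alternatives covered scaling, offset, filter, variance model, pair term, choice of probe set and samples.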

Additional observations from a re-analysis of the deposited data

Results flagged for a closer look

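The cell type difference of Idi1 (1423804_a_at) was larger in pairs 3 and 4 than in pairs 1 and 2 by 1.28 on the log2 scale, and the test of this interaction was passed (limma adjusted p = 0.0412).

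In the epithelial captures, the normalised log2 level of Lss (1420013_s_at) in pair 2 stood apart from the other 3, with a gap of 0.915 of the group's whole range, above the critical ratio for a group of 4. The deposited intensity of that capture, 324, lay within the range of the others (312 to 374). It was the 1 such case in 26 groups of 4 captures checked, and chance alone would give 5% of groups.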

How the results depend on the processing

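Of 117 values of the 7 tested genes under other settings, 107 kept their direction and their side of the threshold, 7 lost a call, 2 gained one and 1 turned in sign. The sign turned for Hmgcs1, at 0.091 without probe sets of the x, s and a kinds. The gains were Cyp51 and Dhcr7 in pairs 3 and 4 alone, a fit that rests mostly on the variance pooled over probe sets. The losses were those of Idi1 and Sqle given above. Lss could not be tested without x, s and a probe sets, nor Dhcr7 with the filter on all arrays. Idi1 ran from 0.71 to 1.99 over the settings and Sqle from 0.73 to 1.63. The count of members called higher was 2, and 0 with no replicate block (no pair term) and without a variance trend, 1 in pairs 1 and 2 alone and 1 to 2 with each pair left out in turn. The 1 member called lower in pairs 3 and 4 alone was Dhcr7. The median of the members turned from -0.21 to 0.21 with no filter, to 0.23 with the filter on all arrays and to 0.38 without x, s and a probe sets. For the other sterol enzymes the count higher was 1, and 0 with median centring, with no replicate block, without a variance trend and in pairs 1 and 2 alone, and 0 to 1 with a pair left out.

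Over all probe sets 708 were higher and 886 lower. These counts were 160 and 287 with no replicate block, 180 and 342 without a variance trend, 375 and 520 without x, s and a probe sets (fewer were tested), 443 and 505 in pairs 1 and 2 alone, 1398 and 1481 in pairs 3 and 4 alone, and 221 to 696 and 350 to 844 with a pair left out, lowest without replicate 4 (without replicate 3, 317 and 462). Median centring gave 455 and 1097 and moved the median of all probe sets from 0.02 to -0.11. It raised the interaction calls from 211 to 414. The causes were not tested. Genes near the background level, among them Fdps and Dhcr7, are limited by their signal.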
